A study of Mus musculus with 6 samples.

Results

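Glycolysis genes and genes of the hypoxia response were followed in lungs of mouse embryos labelled GATA6 KO and in wild-type lungs. The list holds 35 genes: 3 transporters of glucose and lactate, 14 glycolytic enzymes, 3 regulators of glycolytic flux, 12 other genes that low oxygen induces and the 3 alpha subunits of the hypoxia-inducible factors (HIF). Members were chosen by name, with earlier results of these data known. A member was measured where at least 1 probe set of the Affymetrix Mouse430_2 array is annotated to that gene alone. That held for 32 of the 35, with 76 probe sets, out of 18193 genes and 34945 such probe sets in all. Eno1, Gpi1 and Bnip3l were not analysed as genes here, and the probe sets shared by Bnip3l and its pseudogene are given at the end. Where a gene had several probe sets, the brightest over all 6 arrays was used.

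The lungs were whole embryonic lungs taken at E18.5, and their total RNA was labelled and hybridised. There were 3 arrays of GATA6 KO lung (KO 1 to 3) and 3 of wild-type lung (WT 1 to 3). GATA6 is a zinc finger transcription factor of the lung epithelium, and the series is titled as a search for the genes it regulates in the lung. The labels name neither the allele nor the cells in which the gene was deleted, and they do not say whether each array holds RNA of 1 embryo or a pool, so the p-values measure only the spread between these arrays, which may be technical.

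Glycolysis splits glucose into pyruvate, and lactate dehydrogenase and pyruvate dehydrogenase kinase steer pyruvate towards lactate and away from the mitochondria. When oxygen is plentiful, the prolyl hydroxylases encoded by the Egln genes mark HIF alpha subunits for destruction. When oxygen is low the alpha subunits persist, pair with ARNT, and bind short DNA sites with the core ACGTG near their target genes, among them most glycolytic enzymes. The fetal lung grows in low oxygen before birth, and the HIF2 alpha subunit encoded by Epas1 is known there from endothelium and from alveolar type II cells.

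The core ACGTG was searched on both strands in RefSeq promoter windows (GRCm38.p6) that run from 250 bases before to 50 after each listed gene start. A CACGTG, which reads ACGTG on both strands and is also the E-box bound by other factors, was counted as 1 place. Of the 35 genes, 31 had a window in the table, and 20 of them (64.5%) held the core, against 21.8% of all 27025 genes with a window. The windows of the members also held more CG dinucleotides, with a median of 20 per window against 7 over all windows. Among all windows with between 10.5 and 25 CG dinucleotides, the middle of the members' range, 27.2% held the core, and 10 of the 23 windows of members in that range did (43.5%). By class the core was found for 8 of 10 other hypoxia-induced genes, 8 of 14 enzymes, 2 of 2 transporters, 1 of 3 flux regulators and 1 of 2 alpha subunits. The 250 bases before the start are shown for 6 genes whose levels are described below, with the core in capitals. They are Pgk1 (chrX:106186850-106187099, plus strand), Ldha (chr7:46845554-46845803, plus strand, the upstream of its 2 listed starts), Hk2 (chr6:82774455-82774704, minus strand), Bnip3 (chr7:138909507-138909756, minus strand), Egln3 (chr12:54203875-54204124, minus strand) and, as a window without the core, Pdk1 (chr2:71872974-71873223, plus strand, the upstream of its 2 listed starts).
Pgk1: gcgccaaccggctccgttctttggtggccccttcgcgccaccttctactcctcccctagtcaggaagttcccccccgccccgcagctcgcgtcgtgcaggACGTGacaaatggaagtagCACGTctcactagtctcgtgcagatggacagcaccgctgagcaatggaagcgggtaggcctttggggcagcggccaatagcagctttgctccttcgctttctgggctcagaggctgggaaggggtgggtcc
Ldha: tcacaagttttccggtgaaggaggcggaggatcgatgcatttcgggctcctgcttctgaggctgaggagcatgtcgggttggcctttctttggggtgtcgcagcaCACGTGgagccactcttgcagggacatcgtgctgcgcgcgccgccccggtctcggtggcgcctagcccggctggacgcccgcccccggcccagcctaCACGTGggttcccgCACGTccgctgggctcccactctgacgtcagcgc
Hk2: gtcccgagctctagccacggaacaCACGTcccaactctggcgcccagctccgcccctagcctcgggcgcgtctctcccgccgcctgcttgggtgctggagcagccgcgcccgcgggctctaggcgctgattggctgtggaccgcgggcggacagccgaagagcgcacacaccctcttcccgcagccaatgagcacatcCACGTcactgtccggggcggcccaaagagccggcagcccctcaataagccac
Bnip3: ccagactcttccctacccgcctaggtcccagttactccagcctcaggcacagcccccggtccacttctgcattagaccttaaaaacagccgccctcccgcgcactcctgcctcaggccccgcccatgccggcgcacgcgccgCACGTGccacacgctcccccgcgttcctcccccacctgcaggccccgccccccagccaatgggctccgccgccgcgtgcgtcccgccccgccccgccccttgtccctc
Egln3: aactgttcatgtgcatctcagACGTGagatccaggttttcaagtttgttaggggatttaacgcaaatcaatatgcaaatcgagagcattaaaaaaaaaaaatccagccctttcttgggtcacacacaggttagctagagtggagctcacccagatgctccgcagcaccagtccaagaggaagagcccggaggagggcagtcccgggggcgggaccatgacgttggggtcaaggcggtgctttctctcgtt
Pdk1: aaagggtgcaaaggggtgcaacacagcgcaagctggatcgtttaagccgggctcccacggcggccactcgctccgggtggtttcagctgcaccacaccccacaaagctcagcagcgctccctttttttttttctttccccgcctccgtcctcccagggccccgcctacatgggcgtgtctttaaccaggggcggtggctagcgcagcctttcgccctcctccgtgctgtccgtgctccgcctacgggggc
The 2 places in Pgk1 begin 150 and 131 bases before the start, the 3 in Ldha 145, 48 and 34 bases before it, and the 2 in Hk2 226 and 52 bases before it. Bnip3 has its only place 108 bases before the start and Egln3 229 bases before it. A match is a description of these letters and not a binding site. The 20 measured members with a match had a median difference of 0.21 log2 between KO and WT lungs, and the 9 measured members with a window but no match had 0.38.

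Values are given as log2 of the deposited intensity plus 16, a difference is KO minus WT on this scale, with a precision set by there being 3 arrays a group. Gata6 itself read 11.58, 11.39 and 11.19 in KO 1 to 3, against 11.12, 10.26 and 10.42 in WT 1 to 3, a difference of 0.79 (SE 0.24, limma adjusted p = 0.964). All 3 of its probe sets read higher in the arrays labelled KO, and where they lie relative to the deleted part is not known here, so the level of the targeted gene does not check the labels. Of 8 lung epithelium markers, 7 were above the median gene mean of 6.88, Sftpc among them at 12.71, 15.74 and 15.37 in KO 1 to 3, against 15.60, 15.79 and 15.66 in WT 1 to 3. Fluidics station 1 processed WT 1 and WT 2, and station 2 the other 4 arrays. All WT arrays preceded all KO arrays in scan order, which cannot be told apart from genotype. The arrays also differed in RNA composition, taken as the median of bright probe sets that name no gene minus that of bright probe sets that name 1. It was -0.96, -0.46 and -0.03 log2 in KO 1 to 3, against -0.23, -1.02 and -0.94 in WT 1 to 3, so that KO 2, KO 3 and WT 1 lay apart from the other 3 arrays.

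The listed members read higher in KO lungs more often than lower, by small amounts, and the differences did not pass the test. Of the 32 measured members 23 (71.9%) had a higher mean in KO lungs, where 58.4% of all genes did and 45.0% of the genes brighter than the median. The members were chosen with earlier results of these data known, so this share describes the list only. Among further genes of the same pathways, 37.5% of the glycolysis genes and 54.8% of the hypoxia-induced genes read higher. The median difference was 0.22 log2 over the members, 0.0025 over all genes and -0.03 over the brighter genes. No member passed an adjusted p of 0.05 in limma, and 0.0055% of all genes (1 of 18193) did. The adjusted p was 0.964 for 31 members and 0.997 for Slc2a3. At an unadjusted p under 0.05 there were 2 of the 32 members, Pgk1 and Pdk1, where 4.58% of all genes lay and 633 of the 9096 brighter genes. In 4 members all KO arrays lay above all WT arrays (5.89% of all genes) and in 1 all lay below (3.81% of all genes). Together that is 15.6% of the members, beside 9.7% of all genes and 11.4% of the brighter genes. The test misses many changes of 1 log2: in simulated data with 18193 genes the test recovered 32 of 100 bright genes changed by 1 log2 and 74 of 100 changed by 2. The simulated noise was drawn for each gene on its own, while these arrays share differences such as RNA composition. Recovery in the real data may be lower.

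**Figure D1:**
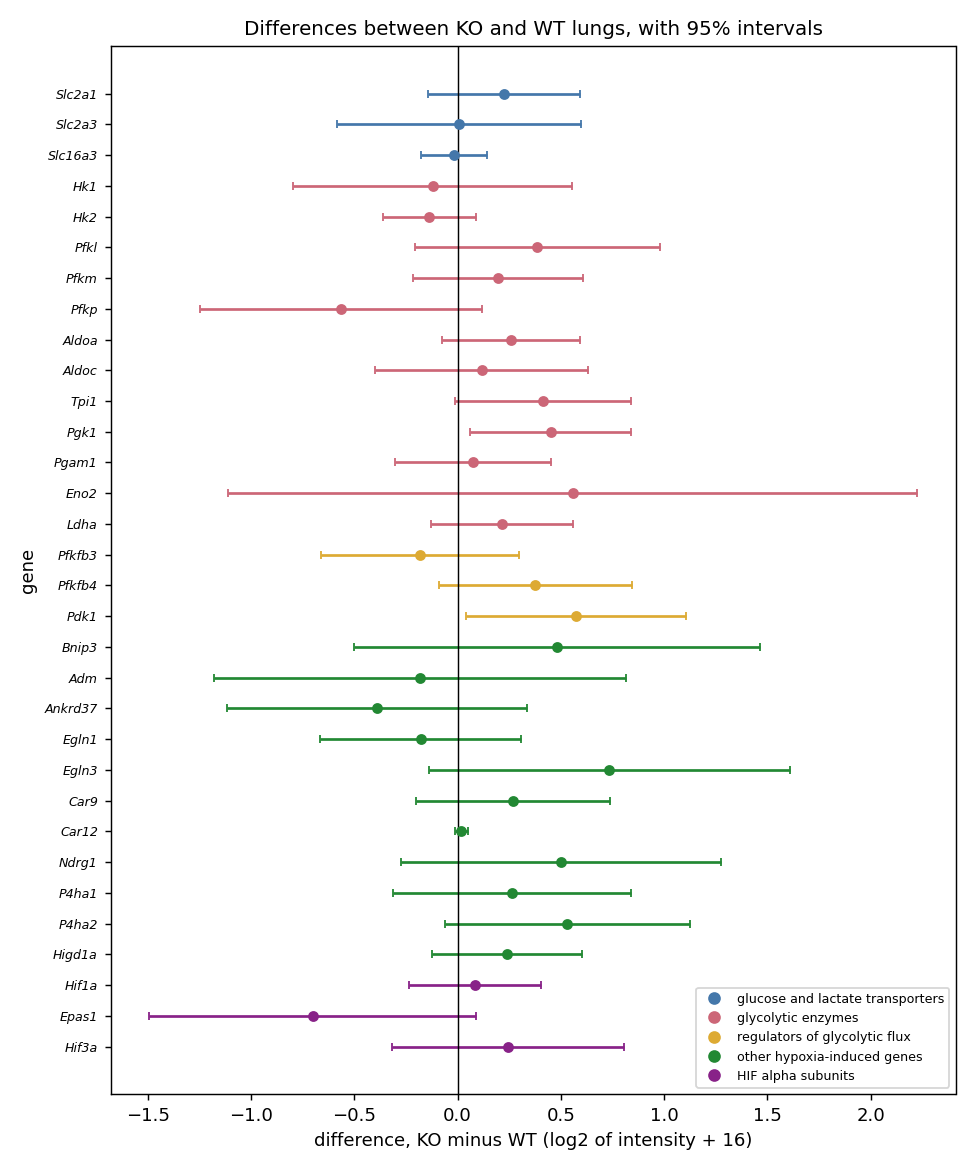
Difference between KO and WT lungs (log2 of intensity plus 16, x axis) for each of the 32 measured genes (y axis), with bars for the 95% intervals of the limma fit on 3 arrays per group and colours for the class of gene. The intervals of Pgk1 and Pdk1 lie above 0 before any adjustment for the number of genes tested, and Epas1 has the lowest difference at -0.70.

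Of the glucose transporters, Slc2a1 differed by about the median of the members and Slc2a3 hardly at all. Both 95% intervals included 0. Slc2a1, the main glucose importer of most fetal tissues, read 11.38, 11.32 and 11.54 in KO lungs, against 11.46, 10.95 and 11.16 in WT lungs. WT 1 lay within the KO range and the other WT arrays lay below it, with a difference of 0.22 (SE 0.15, 95% interval -0.14 to 0.59). Slc2a3, the high-affinity transporter best known from neurons and placenta, read 6.91, 6.30 and 6.77 in KO lungs and 6.73, 6.81 and 6.41 in WT lungs, a difference of 0.01 (SE 0.24). Slc16a3, which exports lactate, read 4.47, 4.49 and 4.60 in KO lungs and 4.68, 4.48 and 4.46 in WT lungs. These values lie near the floor of the arrays, so its level is not measured well here.

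Among the glycolytic enzymes, 9 of 12 read higher in KO lungs, with a median difference of 0.21. Both listed hexokinases, which open the pathway, had a slightly lower mean in KO lungs. Hk2, the inducible hexokinase, read 9.53, 9.50 and 9.59 in KO lungs, against 9.78, 9.63 and 9.61 in WT lungs. Every KO array lay below every WT array, but KO 3 only just below WT 3, and the difference was -0.14 (SE 0.09). Hk1, the hexokinase of most tissues, differed by -0.12 (SE 0.27), and its KO arrays from 8.10 to 9.03 covered those of WT lungs from 8.36 to 8.85.

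The 3 phosphofructokinase genes, whose enzyme commits sugar to glycolysis, went different ways. Pfkl, the liver-type subunit, read 10.98, 10.18 and 10.10 in KO lungs, against 9.96, 10.07 and 10.07 in WT lungs. All KO arrays lay above all WT arrays, but KO 1 stood well above KO 2 and KO 3, and the difference of 0.39 (SE 0.24) was 0.11 without KO 1. Pfkm, the muscle-type subunit, differed by 0.20 (SE 0.17), and by -0.03 between the KO arrays and WT 3 within fluidics station 2. Pfkp, the platelet-type subunit, read 7.52, 7.05 and 6.66 in KO lungs, against 7.44, 7.88 and 7.61 in WT lungs. KO 2 and KO 3 lay below every WT array and KO 1 lay among them, with a difference of -0.57 (SE 0.28, 95% interval -1.25 to 0.12).

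The 7 listed enzymes from aldolase to lactate dehydrogenase that were measured all had a higher mean in KO lungs, while Pkm, the pyruvate kinase of most tissues and 1 of the further glycolysis genes, differed by -0.10 (SE 0.12). Of the others of those steps among the further genes, Pgam2 differed by -0.78 (SE 0.68), Ldhb by -0.35 (SE 0.25) and Bpgm by -0.29 (SE 0.37). Eno3, an enolase, went the other way by 0.10 (SE 0.33). Pgk1, which makes the first ATP of the pathway, read 12.71, 12.68 and 13.04 in KO lungs, against 12.60, 12.17 and 12.32 in WT lungs. All KO arrays lay above all WT arrays, with WT 1 only just below KO 2. The difference was 0.45 (SE 0.16, 95% interval 0.06 to 0.84), or 1.37-fold, with an unadjusted p of 0.03 and an adjusted p of 0.964 in limma. Tpi1, the triosephosphate isomerase, read 12.82, 12.63 and 13.00 in KO lungs, against 12.72, 12.30 and 12.20 in WT lungs. WT 1 lay between KO 2 and KO 1, and the difference was 0.41 (SE 0.17). Aldoa, the aldolase of most tissues, differed by 0.26 (SE 0.14), and Ldha, which turns pyruvate into lactate, by 0.22 (SE 0.14). Ldha read 12.91, 12.92 and 13.08 in KO lungs, against 13.02, 12.62 and 12.63 in WT lungs, with WT 1 again among the KO arrays. Pgam1, the phosphoglycerate mutase, differed by 0.07 (SE 0.15) and Aldoc, the brain-type aldolase, by 0.12 (SE 0.21). The values per array of Tpi1 and Ldha, and the further genes named here, were picked after the values were seen.

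Eno2, the neuron-type enolase, was the enzyme with the widest spread. It read 4.61, 6.13 and 6.46 in KO lungs, against 6.36, 4.51 and 4.65 in WT lungs. KO 2, KO 3 and WT 1 were high, the other 3 arrays lay near the floor, and the difference of 0.56 (SE 0.68) fell well within that spread. Of 4 measured neuron markers 3 were near the floor in all arrays, and the fourth, Stmn2, read 6.48, 7.59 and 7.15 in KO lungs, against 7.90, 8.50 and 7.55 in WT lungs, in another order of arrays than Eno2.

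**Figure D2:**
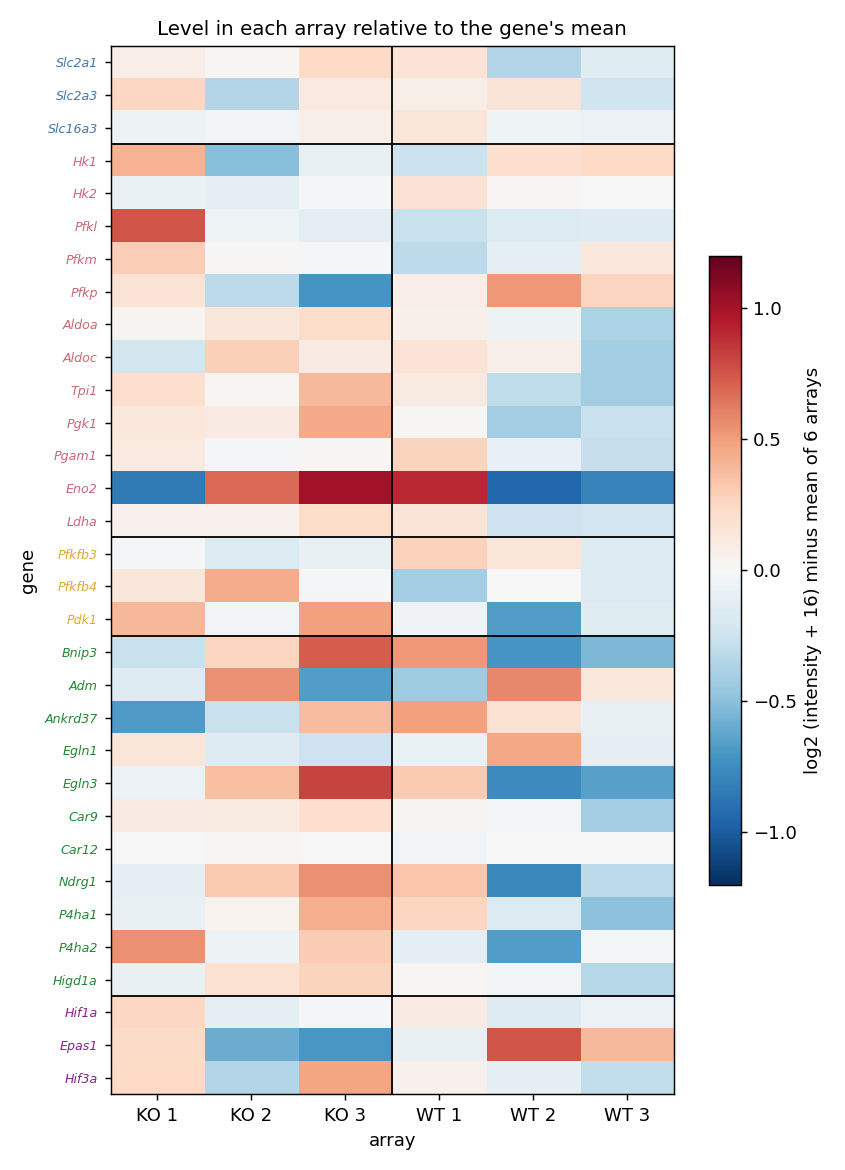
Level of each of the 32 genes (rows, names coloured by class: transporters, enzymes, flux regulators, other hypoxia-induced genes and HIF alpha subunits from top to bottom) in each array (columns, KO left of WT), as log2 of intensity plus 16 minus the gene's mean over 6 arrays. Bnip3, Egln3, Ndrg1 and Eno2 are high in KO 2, KO 3 and WT 1, while Epas1 is highest in WT 2.

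Of the regulators of flux, 2 of 3 read higher in KO lungs. Pdk1, a kinase that shuts pyruvate out of the mitochondria and a known HIF target, read 11.31, 10.89 and 11.41 in KO lungs, against 10.87, 10.25 and 10.77 in WT lungs. All KO arrays lay above all WT arrays, KO 2 only just above WT 1. The difference was 0.57 (SE 0.22, 95% interval 0.04 to 1.10), or 1.49-fold, with an unadjusted p of 0.04 and an adjusted p of 0.964 in limma, and its promoter window held no ACGTG. Pfkfb4 and Pfkfb3 make and degrade fructose 2,6-bisphosphate, which activates phosphofructokinase. Pfkfb4 read 8.30, 8.61 and 8.15 in KO lungs, against 7.75 to 8.17 in WT lungs (difference 0.38, SE 0.19), the lowest KO array just under the highest WT array. Pfkfb3 read 7.07, 6.94 and 7.01 in KO lungs, against 7.38, 7.25 and 6.95 in WT lungs. WT 1 and WT 2 lay above all KO arrays and WT 3 did not, so the difference of -0.18 (SE 0.19) became 0.06 within station 2.

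Among the other hypoxia-induced genes, 8 of 11 read higher in KO lungs, with a median difference of 0.26, and the arrays of each group lay far apart. Egln3, the prolyl hydroxylase that HIF itself induces most strongly in many cells, read 10.07, 10.51 and 10.95 in KO lungs, against 10.46, 9.38 and 9.49 in WT lungs. WT 1 lay among the KO arrays, and the difference was 0.74 (SE 0.36, 95% interval -0.14 to 1.61). Egln1, the hydroxylase that sets HIF levels in normal oxygen, differed by -0.18 (SE 0.20), and by 0.03 within station 2. Ndrg1, a stress-responsive gene of differentiating cells, read 11.29, 11.72 and 11.95 in KO lungs and 11.74, 10.63 and 11.09 in WT lungs, a difference of 0.50 (SE 0.32). That probe set carries the x suffix, which marks probes that may also match other transcripts, and the difference was 0.25 on the brightest probe set without an s or x suffix. Bnip3, which drives removal of mitochondria, read 11.79, 12.32 and 12.79 in KO lungs, against 12.58, 11.36 and 11.53 in WT lungs, a difference of 0.48 (SE 0.40). In both Ndrg1 and Bnip3, WT 1 read with KO 2 and KO 3. Without KO 3 the difference of Bnip3 was 0.24, and without WT 2 that of Ndrg1 was 0.24. The values per array of Bnip3 were picked after they were seen.

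The collagen prolyl hydroxylase subunit genes P4ha1 and P4ha2, which low oxygen induces in matrix-forming cells, both read higher in KO lungs. P4ha2 read 9.30, 8.69 and 9.05 in KO lungs, against 8.63, 8.08 and 8.73 in WT lungs. KO 2 lay just below WT 3, and the difference was 0.53 (SE 0.24, 95% interval -0.06 to 1.12), while P4ha1 differed by 0.26 (SE 0.23), and by 0.08 without WT 3. Car9, a surface carbonic anhydrase, read 6.51, 6.53 and 6.62 in KO lungs, against 6.45, 6.40 and 6.00 in WT lungs. All KO arrays lay above all WT arrays, KO 1 only just above WT 1. The difference of 0.27 (SE 0.19) owed much of its size to a low WT 3. Higd1a, a mitochondrial inner membrane protein, differed by 0.24 (SE 0.15). Ankrd37 and Adm read lower in KO lungs: Ankrd37, an ankyrin repeat gene and HIF target, by -0.39 (SE 0.30; -0.15 without KO 1 and -0.67 without KO 3), and Adm, the vasodilator peptide adrenomedullin, by -0.18 (SE 0.41). Car12, another carbonic anhydrase, lay at the floor in all arrays, from 4.49 to 4.53 in KO lungs and from 4.47 to 4.50 in WT lungs.

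The HIF alpha subunits differed from each other. Hif1a read 12.56, 12.20 and 12.30 in KO lungs, against 12.41, 12.15 and 12.24 in WT lungs. The groups overlapped throughout, with a difference of 0.08 (SE 0.13) and a 95% interval from -0.23 to 0.40. HIF1 is controlled mainly through the stability of its alpha protein, which these arrays do not measure. Hif3a, whose products can restrain the other subunits, read 11.03, 10.43 and 11.26 in KO lungs and 10.83, 10.67 and 10.49 in WT lungs (difference 0.24, SE 0.23).

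Epas1 had the lowest difference of the 32 members. It read 12.68, 11.86 and 11.76 in KO lungs, against 12.36, 13.20 and 12.84 in WT lungs. KO 2 and KO 3 lay below every WT array, KO 1 lay among them, and the difference was -0.70 (SE 0.32, 95% interval -1.49 to 0.09). Without any single array it ran from -0.99 to -0.50. Most markers of the endothelium, where Epas1 is known to be active, moved with it. Emcn did not: it differed by -0.09 (SE 0.24), with KO 3 at 11.52 and WT 1 lowest at 10.87. All 6 of the 6 endothelium markers had a lower mean in KO lungs, with a median difference of -0.67, and none was near the floor in every array. Their summed intensity was 6136, 4542 and 5221 in KO 1 to 3, against 4897, 8651 and 8164 in WT 1 to 3. Their mean deviation from the gene means was 0.14, -0.50 and -0.52 log2 in KO 1 to 3, against -0.24, 0.67 and 0.45 in WT 1 to 3. Epas1 put the 6 arrays in the order of these mean deviations, WT 2, WT 3, KO 1, WT 1, KO 2 and KO 3 from high to low. The summed intensities had another order, with KO 3 above WT 1. That order of Epas1 was not particular to endothelium markers. The mean deviations of the 6 gluconeogenesis genes described below had it too, from 0.30 in WT 2 to -0.32 in KO 3. The arrays highest in Epas1, WT 2, WT 3 and KO 1, also had the lowest values of RNA composition. The mean deviation of the lung epithelium markers was -0.52, 0.02 and -0.44 log2 in KO 1 to 3. In WT 1 to 3 it was 0.04, 0.39 and 0.51. In whole lung, fewer cells of a type and less RNA per cell cannot be told apart. The part of endothelium, epithelium and RNA composition in the Epas1 difference was not tested.

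**Figure D3:**
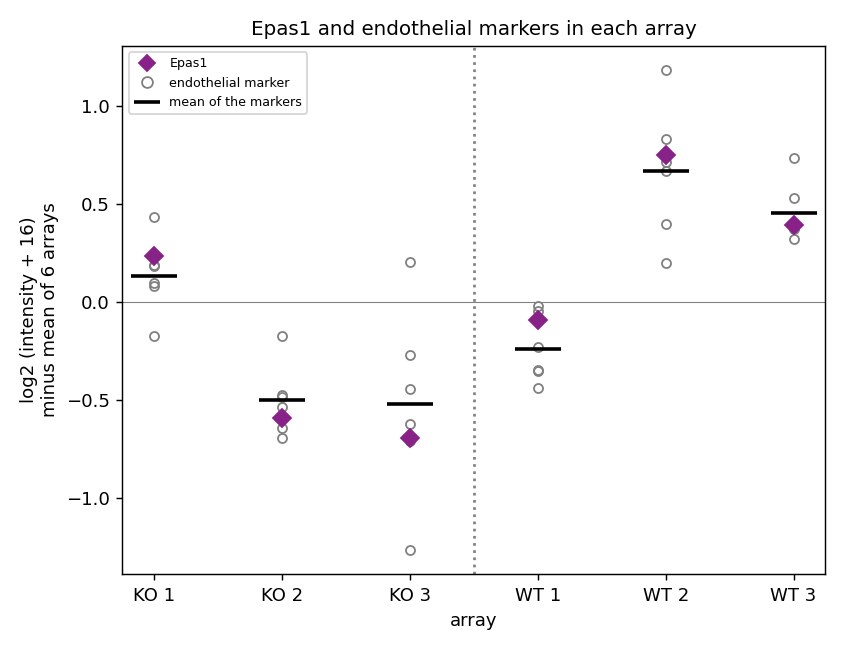
Epas1 (filled diamonds), the 6 endothelium markers (open circles) and the mean of those markers (black bars) in each array (x axis, KO left of WT), as log2 of intensity plus 16 minus the mean of 6 arrays (y axis). WT 2 and WT 3 are highest and KO 2 and KO 3 lowest in both Epas1 and the marker mean.

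Glycolytic enzymes were then set against the other hypoxia-induced genes, array by array. The mean deviation of the 12 enzymes from their gene means was 0.09, 0.02 and 0.12 log2 in KO 1 to 3, against 0.09, -0.13 and -0.19 in WT 1 to 3. The 11 other hypoxia-induced genes lay at -0.06, 0.12 and 0.25 in KO 1 to 3, against 0.12, -0.17 and -0.26 in WT 1 to 3. Both classes were low in WT 2 and WT 3 and high in KO 3 and WT 1, and they parted in KO 1, where the enzymes were above their mean and the other genes below it. The median difference between KO and WT lungs was 0.21 for the enzymes and 0.26 for the other genes, a gap of -0.06. The gap between the mean deviations of the classes was 0.15, -0.10 and -0.13 in KO 1 to 3, against -0.03, 0.04 and 0.07 in WT 1 to 3, so its spread within the KO arrays was wider than the gap. The gap between the medians was 0.01 without KO 3 and 0.02 without WT 3. Within fluidics station 2, the KO arrays against WT 3 alone, the medians were 0.34 and 0.47.

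Across all members, KO 2, KO 3 and WT 1 were the 3 highest arrays in 10 of 32 genes, where 7.54% of all genes and 11.3% of the brighter genes showed that order. The 10 included 5 of the 11 other hypoxia-induced genes (Bnip3, Egln3, Ndrg1, P4ha1 and Higd1a), 4 of the 12 enzymes (Aldoa, Aldoc, Eno2 and Ldha), and the lactate exporter Slc16a3, near the floor. Other probe sets of these genes did not all show that order. On those of Aldoa and P4ha1 every KO array lay above every WT array, and on those of Higd1a and Aldoc WT 2 was highest. On that of Egln3, KO 1 (8.41) lay above KO 2 (8.21). Some other probe sets of Ndrg1 kept the order. The order with KO 2, KO 3 and WT 1 highest was picked after the values were seen, and the same 3 arrays had the highest values of RNA composition. With RNA composition as a covariate the median difference was 0.08 for the enzymes and 0.16 for the other hypoxia-induced genes. The 3' minus 5' signal of the actin control probe sets was 1.08, 1.07 and 1.30 log2 in KO 1 to 3, against 1.16, 0.90 and 0.89 in WT 1 to 3. That of the Gapdh control probe sets was -0.28, -0.37 and -0.37 in KO 1 to 3. In WT 1 to 3 it was -0.29, -0.29 and -0.38. The part of RNA quality in the differences of the members was not tested.

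**Figure D4:**
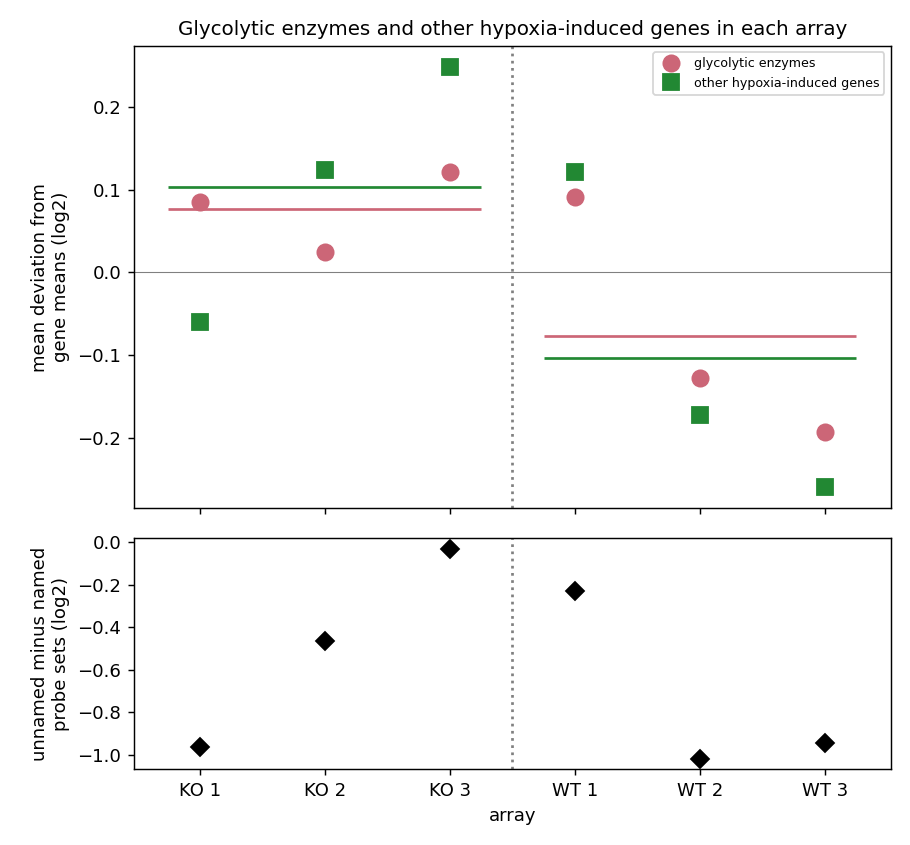
Upper panel: mean deviation of the 12 glycolytic enzymes (circles) and the 11 other hypoxia-induced genes (squares) from their gene means in each array, with lines for the mean of each group of 3 arrays. Lower panel: RNA composition as the median of unnamed minus that of named bright probe sets, in log2. WT 1 lies with KO 2 and KO 3 in the lower panel, and above 0 like KO 3 in the upper.

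Different probe sets of a gene gave the same sign for 16 of the 21 members with several. All 3 probe sets of Pgk1 read higher in KO lungs, by 0.40 to 0.55, all 3 of Tpi1 by 0.41 to 0.59 and all 5 of Aldoa by 0.26 to 0.52. All 4 of Pdk1 read higher, by 0.35 to 0.88, all 5 of Ndrg1 by 0.22 to 0.50 and both of Egln3 by 0.53 and 0.74. The 0.88 of Pdk1 came from a probe set that read 7.29 in KO 3 and only 4.56 to 5.12 in the other arrays. Those of Pfkp, Epas1 and Egln1 all read lower, from -0.57 to -0.04, from -0.99 to -0.70 and from -0.59 to -0.18. The probe sets of Pfkp other than the brightest read from 4.54 to 5.02, near the floor. Signs were mixed for Aldoc, Car12, Hif1a, Higd1a and Slc2a3. All 5 probe sets of Aldoa, 2 of Pgk1 and 1 of Tpi1 carry the x suffix, as does the brightest of Ndrg1, so their signal is less certain. Over the 21 genes the brightest probe set gave the smallest difference of its gene in size for 9, the largest for 7 and one between for 5. It gave the smallest for Tpi1 and Aldoa, and the largest for Ndrg1 (0.50, against 0.22 to 0.26 on the others), Egln3 (0.74 against 0.53), Pfkl (0.39 against 0.02 and 0.22) and Higd1a (0.24 against -0.09 and -0.06). Probe sets of 1 gene read the same RNA and are not replicates.

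**Figure D5:**
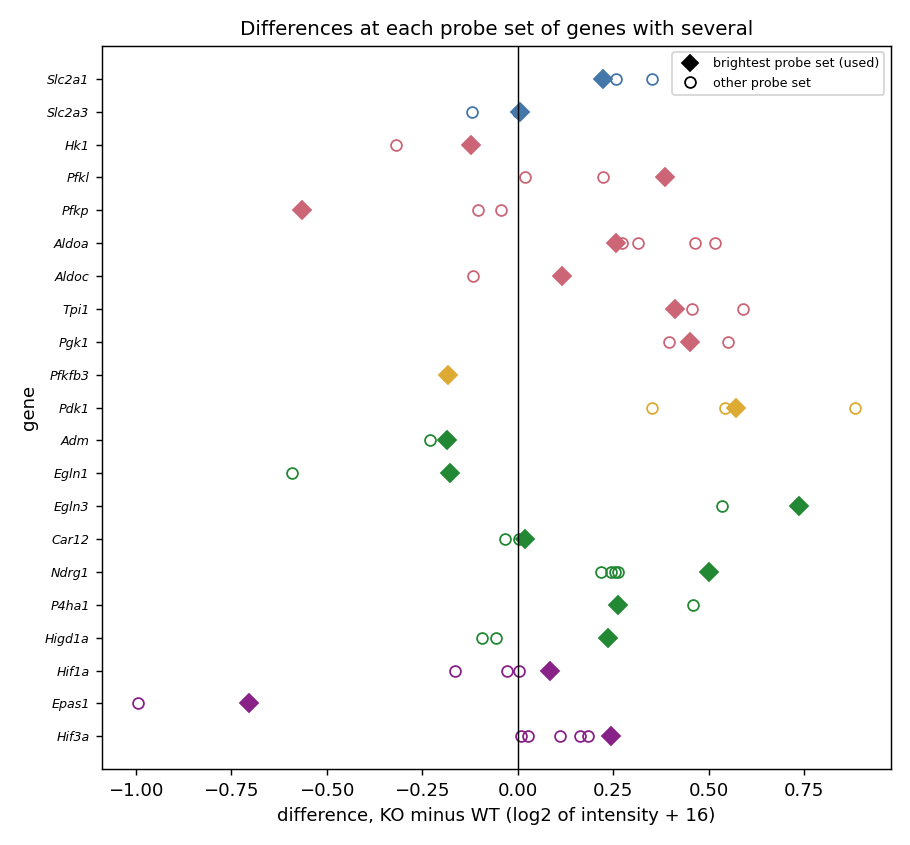
Difference between KO and WT lungs (log2 of intensity plus 16, x axis) at each probe set of the 21 genes with more than 1 (y axis), with filled diamonds for the brightest probe set and open circles for the others. Every probe set of Pgk1, Tpi1, Aldoa, Pdk1, Ndrg1 and Egln3 lies above 0 and every one of Epas1 and Pfkp below it.

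Genes around the pathway were counted in the same way. Of 16 measured further glycolysis genes 6 read higher, with a median of -0.12, and none of them passed. Galm, which interconverts the forms of glucose, differed by 0.40 (SE 0.17) and the lactate transporter Slc16a1 by 0.25 (SE 0.16), while Mpc1, a subunit of the mitochondrial pyruvate carrier, differed by -0.33 (SE 0.13) and Pgm2 by -0.33 (SE 0.17). Of 31 further hypoxia-induced genes 17 read higher, with a median of 0.01, and none passed. Insig2, a brake on sterol synthesis, differed by 0.28 (SE 0.11) and Mif by 0.32 (SE 0.16). Cxcr4, a chemokine receptor, differed by -0.69 (SE 0.22) and Errfi1, a feedback inhibitor of the EGF receptor, by -0.40 (SE 0.17). Cxcr4 read 7.06, 7.61 and 7.45 in KO lungs, against 8.02, 8.30 and 7.87 in WT lungs, with no overlap.

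Of 16 regulators of the HIF pathway, 10 read higher, with a median of 0.0041, and none passed. Hsp90aa1, a chaperone of HIF1 alpha, read 13.60, 13.70 and 13.67 in KO lungs, against 13.35, 13.37 and 13.43 in WT lungs, with no overlap and a difference of 0.28 (SE 0.09, adjusted p = 0.964 in limma). Egln2 differed by 0.20 (SE 0.13), Siah2, a ligase for prolyl hydroxylases, by -0.33 (SE 0.31) and Rbx1, part of the VHL ligase, by -0.40 (SE 0.19) near the floor. Of 6 gluconeogenesis genes, which run the pathway backwards, 2 read higher and none passed. Fbp2, the muscle fructose bisphosphatase, read 4.77, 4.88 and 4.63 in KO lungs, against 5.35, 6.77 and 6.79 in WT lungs. The KO arrays lay near the floor and below all WT arrays, with a difference of -1.54 (SE 0.40, adjusted p = 0.93 in limma). Fbp1 differed by -0.26 (SE 0.23), Pck2 by 0.27 (SE 0.19) and G6pc by 0.0017 at the floor.

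Markers of other cells in whole lung were counted over whole lists, and none of them passed. Of 8 lung epithelium markers 7 read lower in KO lungs (median -0.39, sums of 63618 to 128316 in KO lungs and 123606 to 166189 in WT lungs). Cldn18, a claudin of alveolar epithelium, read 9.18, 11.91 and 9.81 in KO lungs, against 13.31, 13.22 and 13.48 in WT lungs. All KO arrays lay below all WT arrays, with a difference of -3.04 (SE 0.68, adjusted p = 0.832 in limma), the largest of the marker lists. Ager, of alveolar type I cells, differed by -0.45 (SE 0.23) and the adhesion gene Epcam by 0.41 (SE 0.40). Of the endothelium markers above, the receptor genes Kdr and Tie1 had the smallest unadjusted p, with differences of -0.68 (SE 0.25) and -0.66 (SE 0.27).

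Of 6 mesenchyme markers 5 read lower in KO lungs (median -0.10, sums of 60944 to 79215 in KO lungs and 69124 to 75122 in WT lungs), with Tbx4 at -0.33 (SE 0.13, no overlap), Pdgfra at -0.25 (SE 0.16) and Col1a2 at 0.01 (SE 0.16). Of 7 erythroid markers 5 read lower (median -0.28, sums of 1637 to 2596 in KO lungs and 2258 to 6858 in WT lungs, the highest in WT 1). The embryonic globins Hba-x and Hbb-y differed by -0.63 (SE 0.29) and -1.74 (SE 1.15), and Hba-a1, Klf1 and Epb42 lay near the floor in all arrays. Of 6 myeloid markers 3 read lower (median -0.03, sums of 6586 to 33456 in KO lungs and 12401 to 27921 in WT lungs), with Cd68 at -0.41 (SE 0.25), Lyz2 at -0.22 (SE 0.72), Csf1r at 0.25 (SE 0.20) and Itgam near the floor. Of 8 muscle markers 2 read lower (median 0.15, sums of 4086 to 7990 in KO lungs and 4486 to 6464 in WT lungs), with Tnni3 at 0.23 (SE 0.44), Myh6 at 0.24 (SE 0.50), Tnnt2 at -0.03 (SE 0.41) and Acta1 near the floor. Of 4 neuron markers 2 read lower (median -0.0025), with Stmn2 at -0.91 (SE 0.38) and Snap25, Tubb3 and Elavl4 near the floor. The part of these cells in the differences of glycolysis and hypoxia genes was not tested.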

How the data were processed

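Total RNA of E18.5 mouse lungs was measured on 6 Affymetrix Mouse430_2 arrays, 3 per group. The values deposited by the authors are linear probe set intensities. Per the submitters' processing notes, GCRMA and MAS5 were used, with no version, role or order given. The quantiles of the arrays lay close together, so no further scaling was applied. The experiment files gave only the chip type, fluidics station and scan order.

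Intensities were transformed to log2 after adding 16, which shrinks differences of dim genes. Of 45101 probe sets, 64 were controls, 932 named several genes, 9160 had no name here and 34945 named 1 gene, 34741 through a current gene ID (GRCm38.p6, for names only). All 18193 genes were fitted in limma 3.58.1 under R 4.3.3, with a trend of variance on intensity in eBayes. Tests were two-sided, p-values were adjusted by Benjamini-Hochberg across the 18193 genes, and 0.05 was the threshold. No filter was applied. The fit was tested on simulated data. No 2 arrays held the same values: the closest pair correlated at 0.993 in log2, and at most 11 values of any pair were identical.

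The members, the gene lists and the tests were chosen with earlier results of these data known. The text names all 32 measured members, with values per array for those whose groups do not overlap and for the 3 with the largest differences of each class. Of each further list and marker list it names up to 2 genes per direction with the smallest p. Pkm, Pgam2, Ldhb, Bpgm, Eno3, Sftpc and Epb42 were named after their values were seen. Lists are described by counts and medians, with no test. Array numbers were not taken as pairs, since residuals of arrays with the same number correlated at -0.613, 0.0971 and -0.311. Alternatives were other eBayes settings, array weights, scalings, probe set choices and pseudocounts, a filter on dim genes, leaving out each array, the replicate block and the fluidics station. The fit within station 2 and the RNA composition covariate were chosen after seeing the data.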

Additional observations from a re-analysis of the deposited data

How the results depend on the processing

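No member passed in any of the 20 alternatives, with the lowest adjusted p at 0.497 (array weights). The number of members at an unadjusted p under 0.05 ran from 0 (without WT 2, and without WT 3) to 10 (array weights). The signs of 21 of the 32 members held in each alternative that gave a value, and 6 members, Eno2 and Car9 among these 21, had none under the filter on dim genes. Leaving out 1 array moved the differences of 28 members by over 1.5 times for at least 1 array; those of Pgk1, Tpi1, Egln3 and Epas1 moved less. The count of genes passing over the whole table was 1, and it was 0 with no intensity trend, with the replicate block and with RNA composition as a covariate, 10 within fluidics station 2 and 32 with station as a block. Leaving out single arrays gave counts from 0 to 1 (0 without KO 2, KO 3, WT 1, WT 2 or WT 3). The replicate block, with the numbers not taken as pairs, changed no other call. The median for the enzymes (0.21) was 0.34 with station as a block and within station 2, and 0.0796 with RNA composition as a covariate. For the other hypoxia-induced genes (0.26) it was 0.47 with station as a block and within station 2, 0.18 with array weights, and from 0.12 (without WT 3; 0.16 without KO 3) to 0.35 without single arrays. For the enzymes the range without single arrays was 0.14 (without WT 3) to 0.29. The gap between the classes (-0.06) was -0.18 with the filter on dim genes and 0.0259 with array weights, and ran from -0.16 to 0.02 without single arrays. Since station 1 held only WT arrays, the station fits set the KO arrays against WT 3 alone. The cause of these shifts was not tested.

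Differences that changed sign were small. Slc2a3 (0.01) was -0.147 with array weights, -0.0269 with median centring, -0.0099 with quantile normalisation and -0.0264 for the mean of all probe sets. Car12 (0.02) was -0.0153 with median centring, -0.0035 for the mean of all probe sets and -0.0325 without s or x probe sets. Slc16a3 (-0.02) was 0.0117 with array weights and 0.064 with station as a block or within station 2. Hif1a (0.08) was -0.0253 for the mean of all probe sets. With station as a block and within station 2, Pfkm (0.20) was -0.0272, Pfkfb3 (-0.18) was 0.0621 and Egln1 (-0.18) was 0.0293. With the RNA composition covariate, Hk1 (-0.12) was 0.0258 and Adm (-0.18) was 0.0045. Without single arrays, Slc2a3 ran from -0.12 to 0.19, Slc16a3 from -0.0586 to 0.0513, Hif1a from -0.0195 to 0.16, Hk1 from -0.36 to 0.10, Adm from -0.50 to 0.11, Egln1 from -0.29 to 0.0125, Aldoc from -0.0567 to 0.25 and Pgam1 from -0.0458 to 0.23.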

Other observations

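The 3 probe sets annotated to both Bnip3l, a mitophagy receptor also needed in red cell maturation, and its pseudogene cannot be told apart by gene. The brightest read 12.84, 13.37 and 13.26 in KO 1 to 3, against 13.25, 13.22 and 12.73 in WT 1 to 3, and the 3 differed by 0.09, 0.13 and 0.04 log2. The groups overlapped in all 3.

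Gapdh, the glycolytic dehydrogenase, was read on the control probe sets of the array. Its 3' probe set read 14.02, 13.76 and 13.82 in KO 1 to 3, against 13.67, 13.71 and 13.78 in WT 1 to 3. Its middle probe set read 13.88, 13.69 and 13.77 in KO 1 to 3, against 13.45, 13.55 and 13.75 in WT 1 to 3. The 5' probe set read from 14.12 to 14.31 in KO lungs and from 13.97 to 14.16 in WT lungs. The 3', middle and 5' means differed by 0.15, 0.20 and 0.17 log2, and in all 3 KO 2 lay just below WT 3. These probe sets were not part of the fit.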
